A study of Mus musculus with 3 samples.

Results

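Claudins, connexins and cadherins build the contacts between neighbouring cells, and their RNA was examined here in endothelial cells of the adult mouse renal medulla. Members were every gene with a probe set naming it alone whose symbol is that of a numbered claudin, connexin or cadherin, of a zonula occludens gene, of Marveld2, Marveld3 or of Ocln. This rule found 67 of the 19938 genes measured. They comprise 23 claudins, 16 connexins, 23 cadherins and 5 genes for zonula occludens and MARVEL proteins. Where a gene had several probe sets, the one with the highest mean was used, which concerned 3 members.

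The series holds 3 arrays of a single group, adult male FVB/N mice carrying the transgene Tg(TIE2GFP)287Sato, in which the Tie2 promoter drives green fluorescent protein. Each array is a pool of 2 kidneys, whose medulla was dissected, dissociated with Collagenase A and sorted for fluorescent cells. The Tie2 promoter marks endothelium, and it is also known to be active in some blood-forming and myeloid cells. No other compartment, treatment or unsorted tissue was analysed here. The values are thus levels in the pool of cells sorted from the medulla and not differences between conditions.

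Tight junctions seal the space between cells: claudins form their strands and pores, occludin and tricellulin (Marveld2) join the strands, and zonula occludens proteins tie them to actin. Gap junctions are channels between cells that are built of connexins. Adherens junctions hold cells together through cadherins, whose tails bind catenins. In the medulla the descending vasa recta have a continuous endothelium and the ascending vasa recta a fenestrated one, so junctions of different tightness lie next to each other.

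The promoters of Cldn5 and Cldn15, claudins of endothelium, and of Gja4 and Gja5, the arterial connexins, are shown first, as examples of junction genes known from vessels. Gja1 is not shown, and Gjc1 had no entry. Each is the 250 bases before the RefSeq start, in assembly GRCm38.p6 and 5′ to 3′ on the strand of the gene. Capitals mark GGAAG as the core of many ETS sites, GGGCGG as the GC box and CCAAT as the box of that name, searched on both strands. On the other strand the ETS core reads CTTCC, the GC box reads CCGCCC and the last reads ATTGG. No base of these windows lay in more than 1 of the motifs.
Cldn5, chr16:18776597-18776846, plus strand: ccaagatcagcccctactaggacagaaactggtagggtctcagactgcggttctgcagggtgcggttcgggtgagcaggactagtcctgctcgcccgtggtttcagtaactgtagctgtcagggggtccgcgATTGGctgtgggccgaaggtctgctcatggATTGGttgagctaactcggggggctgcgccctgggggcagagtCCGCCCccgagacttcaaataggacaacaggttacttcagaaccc
Cldn15, chr5:136967619-136967868, plus strand: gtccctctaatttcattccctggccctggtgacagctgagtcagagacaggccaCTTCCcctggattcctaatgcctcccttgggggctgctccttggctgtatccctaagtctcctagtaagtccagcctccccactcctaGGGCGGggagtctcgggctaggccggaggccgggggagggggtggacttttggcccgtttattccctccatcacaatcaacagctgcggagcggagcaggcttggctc
Gja4, chr4:127314040-127314289, minus strand: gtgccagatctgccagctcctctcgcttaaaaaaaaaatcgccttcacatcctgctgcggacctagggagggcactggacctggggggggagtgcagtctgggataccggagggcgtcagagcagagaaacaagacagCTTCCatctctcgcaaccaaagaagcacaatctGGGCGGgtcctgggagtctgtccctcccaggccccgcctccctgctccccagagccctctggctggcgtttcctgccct
Gja5, chr3:97032152-97032401, plus strand: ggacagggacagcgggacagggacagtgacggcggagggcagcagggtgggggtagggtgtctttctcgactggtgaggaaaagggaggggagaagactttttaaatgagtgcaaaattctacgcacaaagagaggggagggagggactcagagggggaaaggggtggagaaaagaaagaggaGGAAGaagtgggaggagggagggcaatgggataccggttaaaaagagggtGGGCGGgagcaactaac
The Cldn5 window held 2 CCAAT boxes and 1 GC box, and each of the other windows held 1 GGAAG and 1 GC box. Of all 32851 promoter windows, 64.1% held GGAAG, 32.7% GGGCGG and 33.8% CCAAT. Among 65 windows of the 48 members with an entry, the shares were 70.8%, 41.5% and 36.9%. A match describes letters in a window and not a bound site.

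Levels are the deposited log2 values, where 1 unit is a factor of 2. The study kept probe sets with a raw level of at least 100 (log2 6.64), and this filter was applied to the 3 arrays. A stricter background limit of log2 7.95 was set at the 95th percentile of 1247 probe sets for olfactory, vomeronasal and bitter taste receptors, most of which are known from sensory cells. Probes differ in affinity, so members were set against these limits and not ranked against each other. Of the 67 members, 58 reached 100 units in all 3 arrays (background 85.4% of all genes) and 28 reached the background limit in all 3 arrays (background 54.9% of all genes). The median level was 7.84 for the members and 8.15 for all genes. The members therefore reached the background limit at a share of 41.8%, under that of all genes, and their share at 100 units was close to that of all genes.

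By limma with Benjamini-Hochberg adjustment over all genes, 24 members lay above the background limit (35.8%, against 52.5% of all genes), 38 below it (56.7%, against 41.4%) and 5 on neither side. Against 100 units limma called 58 above (86.6%, against 84.5%) and 8 below (11.9%, against 13.7%). The same value in all 3 arrays was listed for 36 members (53.7%, against 46.3% of all genes), and limma then gives a very small error. When limma drew its prior variance only from genes whose 3 values differed, called the other prior below, 24 members lay above the background limit (against 49.7% of all genes) and 33 below (against 37.9%). Against 100 units it called 57 above (85.1%, against 83% of all genes) and 5 below (7.46%, against 12%). Against the background limit that fit no longer placed 9 members, which are named below, and placed 4 more above. Of all members, 8 had a mean within 0.1 of the background limit, where the side has little meaning.

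**Figure D1:**
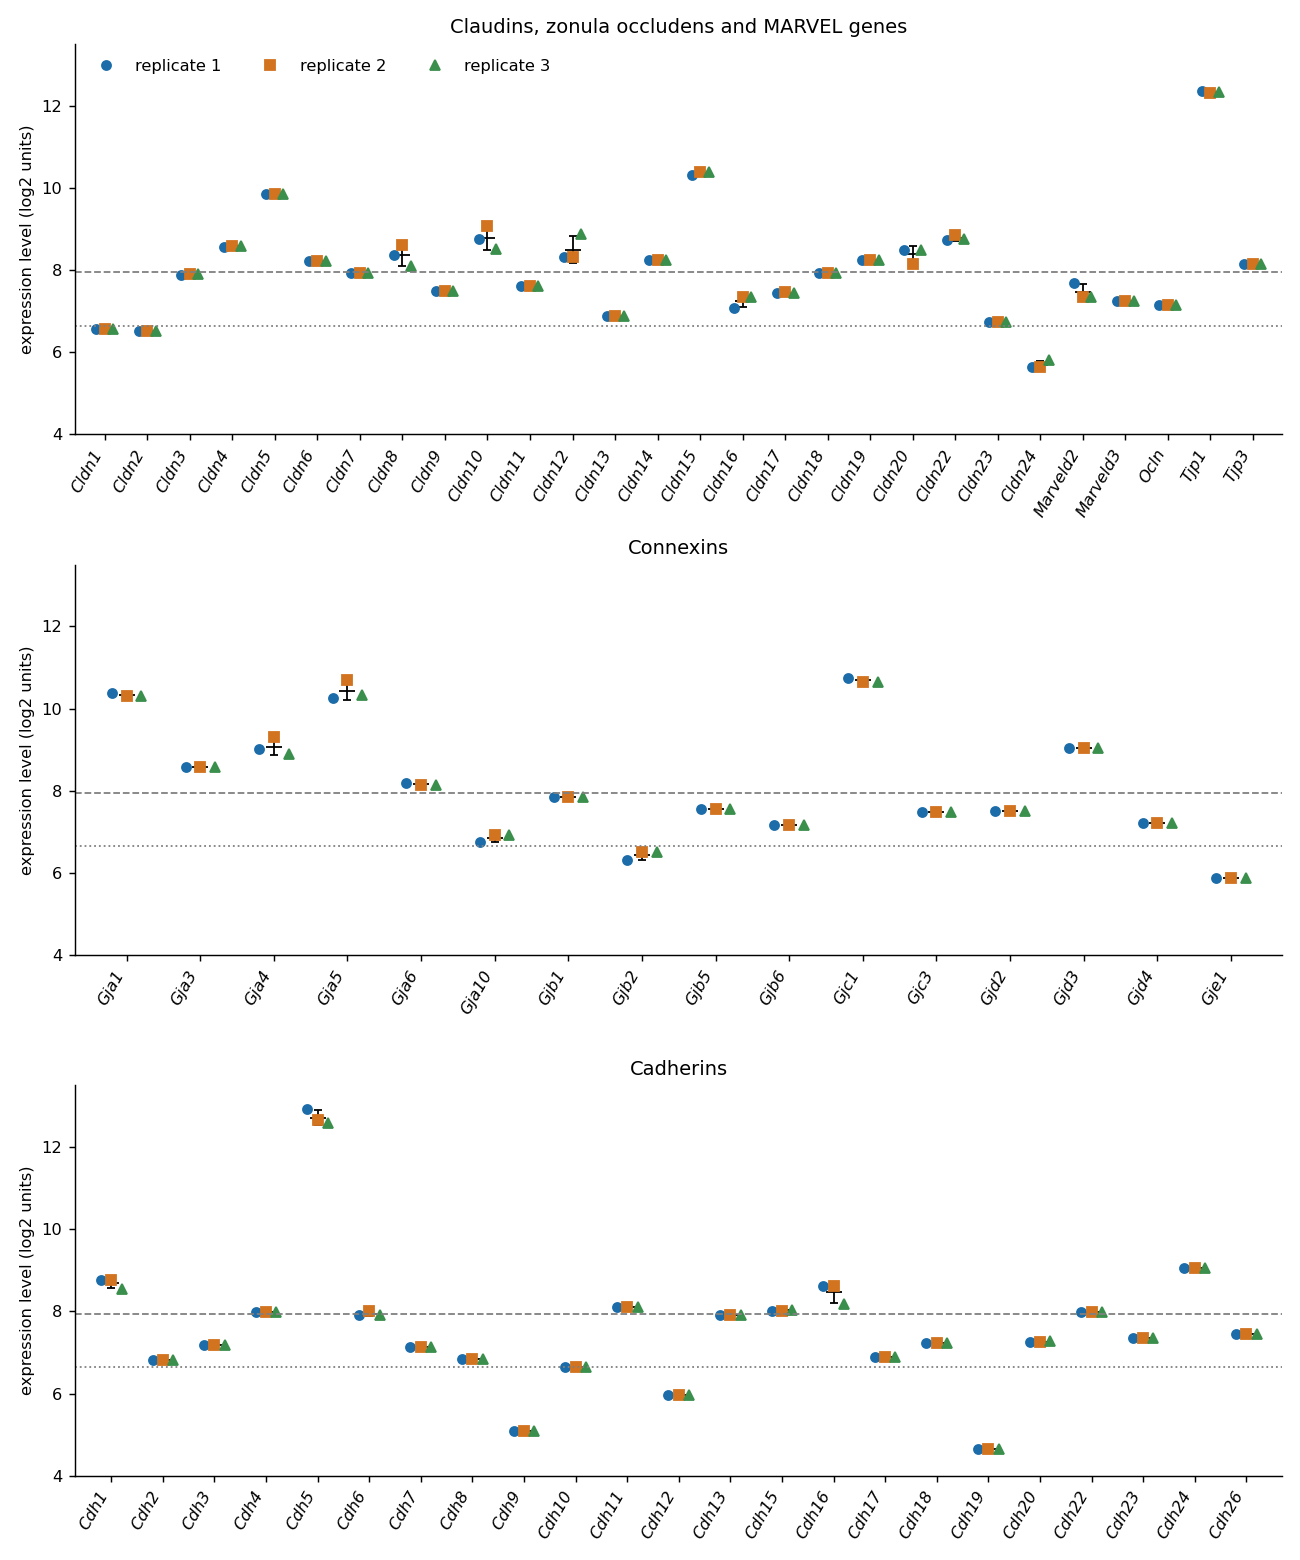
Expression level (y axis, log2 units) of the 67 members (x axis), where points are the 3 arrays and bars give mean ± SD. The dotted line marks 100 units (6.64) and the dashed line the background limit (7.95). Cdh5 and Tjp1 lie above 12 in every array, and Cdh19 lies at 4.65.

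Endothelial marker RNA was present in the sorted cells. All 10 endothelial markers, among them Tek, Kdr, Tie1 and Egfl7, reached the background limit in all arrays and were called above it by limma. Cells were sorted through the promoter of Tie2, which is Tek, so the level of Tek is not independent of the sort. For markers of other cells the counts are read against the 54.9% of all genes that reached the background limit in all arrays. It was reached by 5 of 7 markers of the thick ascending limb, 5 of 9 of the collecting duct, 2 of 8 of the proximal tubule and 5 of 10 general epithelial markers, a list that includes the member Cdh1. It was reached by 3 of 6 urothelial markers, 3 of 5 podocyte markers, 2 of 8 smooth muscle and pericyte markers, 2 of 6 fibroblast markers, 4 of 10 leukocyte markers, 2 of 3 Schwann cell markers and 1 of 4 red cell and platelet markers. The median levels of the arrays differed by at most 0.03. In a sorted pool, fewer cells of a type and less RNA per cell cannot be told apart.

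Among the claudins, those known from endothelium included members far over the background limit. Cldn5, the claudin of tight endothelia such as the blood-brain barrier, stood at 9.84 in each of the 3 arrays. Cldn15, a pore-forming claudin known from the gut, stood at 10.31, 10.38 and 10.38 in replicates 1, 2 and 3 (mean 10.36 ± 0.04, SD, n = 3). It lay 2.41 ± 0.02 (SE) log2 units over the background limit (adjusted p = 5.7e-05, limma), and Cldn5 lay 1.89 over it. All arrays of both genes were over both limits. Cldn5 had the same value in every array and Cldn15 in replicates 2 and 3, so little or no spread was measured.

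The other claudins of that list behaved differently. Cldn12, a widely expressed claudin, stood at 8.31, 8.31 and 8.87 (8.49 ± 0.33, SD). Replicate 3 was its high array, and limma did not place it against the background limit (adjusted p = 0.0824, or 0.0254 with the other prior). Cldn1, the barrier claudin of skin, was listed at 6.56 in every array. It was thus under 100 units by 0.08 log2 units, a gap that the fit with the other prior did not call (adjusted p = 0.247, limma).

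Claudins of renal tubules were found on both sides of the background limit. Of 10 measured, 5 reached it in all arrays (50%, against 54.9% of all genes), namely Cldn4, Cldn8, Cldn10, Cldn14 and Cldn19. Cldn10, which occurs as variants of the proximal tubule and the thick limb, stood at 8.76, 9.08 and 8.50 (8.78 ± 0.29, SD). It lay above the limit (adjusted p = 0.0282, limma), a call that was lost without replicate 1 (adjusted p = 0.202), replicate 2 (0.117) or replicate 3 (0.101). Its other probe set stood at 8.50, 8.69 and 8.27, with the arrays in the same order. Both probe sets were highest in replicate 2 and lowest in replicate 3.

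Cldn8, a claudin of the collecting duct, showed the same order of arrays, at 8.37, 8.61 and 8.10 (8.36 ± 0.26, SD). The main limma fit did not place it (adjusted p = 0.0872, or 0.0322 with the other prior). Cldn4, found in the collecting duct as well, stood at 8.56, 8.58 and 8.58 (8.58 ± 0.01) and lay above the limit (adjusted p = 8.8e-05, limma). For the thick ascending limb, Cldn14, at 8.24, 8.25 and 8.25, lay above the limit (adjusted p = 0.000103, limma). Cldn19, at 8.24 in all arrays, was also called above it. Its partner in the magnesium and calcium pathway, Cldn16, stood at 7.07, 7.34 and 7.34 (7.25 ± 0.16) and lay below the limit (adjusted p = 0.0116, limma). The genes of this pair were thus on different sides of the limit, and Cldn16 was low in replicate 1. The call of Cldn16 was lost without replicate 2 (adjusted p = 0.114, limma) or replicate 3 (0.112).

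The remaining tubule claudins did not reach the background limit. Cldn7 at 7.94 in all arrays and Cldn3 at 7.89 (7.89 ± 0.0022) lay so close to it that the fit with the other prior did not place them (adjusted p = 0.903 and 0.427, limma). Cldn17, an anion pore, stood at 7.43, 7.46 and 7.43. Cldn2, the cation pore of the proximal tubule, was listed at 6.53 in every array, which is under 100 units. The fit with the other prior did not call that gap (adjusted p = 0.121, limma).

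Of 9 claudins known mainly from other tissues or of little known role, 3 reached the background limit in all arrays. This share was 33.3%, against 54.9% of all genes. Cldn22 stood at 8.73, 8.84 and 8.74 (8.77 ± 0.06, SD) and lay above it (adjusted p = 0.00107, limma). Its neighbour on the chromosome, Cldn24, stood at 5.64, 5.64 and 5.81 and lay below 100 units (adjusted p = 0.00202, limma). These genes are close relatives, so the assignment of signal to either is uncertain. Cldn20 was low in replicate 2, at 8.15 against 8.50 in both other arrays, and was not placed (adjusted p = 0.0506, limma, or 0.0168 with the other prior). Cldn6, an embryonic claudin, was at 8.21 in all arrays and called above. Cldn18 of lung and stomach (7.93), Cldn11 of myelin (7.61), Cldn9 of the inner ear (7.50), Cldn13 (6.89) and Cldn23 (6.74) lay between the limits. For Cldn18, only 0.01 under the background limit, the fit with the other prior gave no side (adjusted p = 0.841, limma), nor did it place Cldn23 against 100 units (adjusted p = 0.192, limma).

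Of the cytoplasmic and MARVEL partners of claudins, Tjp1 stood far over the limits while the tricellular and occludin genes stayed below the background limit. Tjp1, the scaffold zonula occludens 1 of tight and adherens junctions, stood at 12.36, 12.30 and 12.32 (12.33 ± 0.03, SD). It lay 4.38 ± 0.01 (SE) log2 units over the background limit (adjusted p = 7e-06, limma). Tjp3, its relative of epithelia, was at 8.14 in all arrays, 0.20 over the limit. Ocln, the occludin gene, stood at 7.16, 7.15 and 7.15 and lay below the limit (adjusted p = 1.3e-05, limma). Marveld2, the tricellulin gene of contacts where several cells meet, stood at 7.68, 7.35 and 7.35 (7.46 ± 0.19) and lay below it (adjusted p = 0.0358, limma), though not without replicate 2 (adjusted p = 0.225) or replicate 3 (0.224). Replicate 1 was the high array of Marveld2 and its range was 0.33. Marveld3 was at 7.24 in every array.

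**Figure D2:**
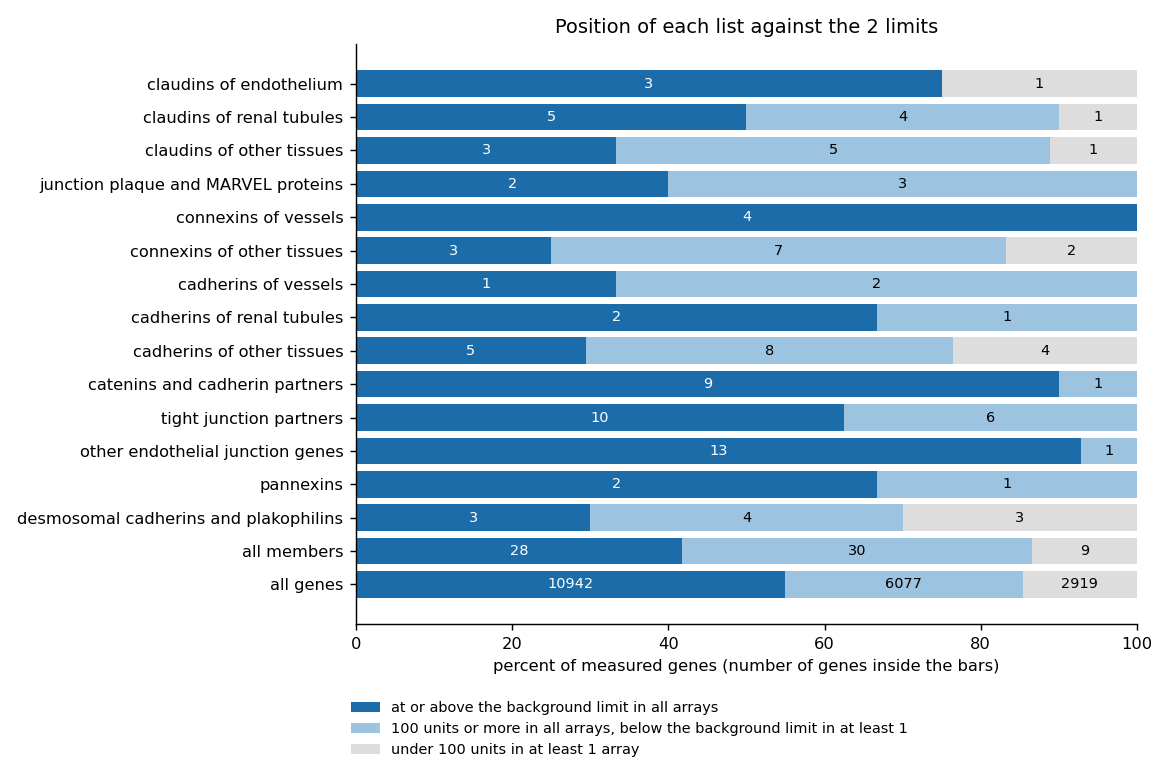
Percent of measured genes (x axis) in each list (y axis) that reached the background limit in all 3 arrays, that reached 100 units in all arrays but not the background limit, or that were under 100 units in at least 1 array, with the number of genes inside the bars. All 4 vessel connexins reached the background limit, and 3 of 12 other connexins did.

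All 4 connexins known from vessel walls were over the background limit in each array (54.9% of all genes were) and by the limma test. Gja5, an arterial connexin also found in renin cells, stood at 10.27, 10.69 and 10.33 (10.43 ± 0.23, SD). It lay 2.48 ± 0.12 (SE) log2 units over the limit (adjusted p = 0.00181, limma), and without replicate 3 that call was lost (adjusted p = 0.054). Gja4, its partner in arterial endothelium, stood at 9.02, 9.31 and 8.89 (9.07 ± 0.21). It lay above the limit (adjusted p = 0.00804, limma), and was not called without replicate 1 (adjusted p = 0.11) or replicate 3 (0.0743). Both arterial connexins were highest in replicate 2, while the lowest array was replicate 1 for Gja5 and replicate 3 for Gja4. Replicate 2 was also high in the leukocyte list, whose 10 genes summed to 4056, 7591 and 4312 units in replicates 1, 2 and 3. That sum rested mainly on Cd74 (9.27, 10.93 and 9.53), H2-Aa (10.49, 11.45 and 10.75) and H2-Ab1 (9.69, 10.66 and 9.38). These genes were chosen after their values were seen. Of the 10 genes 5 had the same value in all arrays, Ptprc among them. The general leukocyte gene Ptprc was at 6.68 and the macrophage gene Csf1r at 7.54, both below the background limit. The part of such cells in the levels of Gja4 and Gja5 was not tested.

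The other vessel connexins hardly differed between arrays. Gja1, the most widely used connexin, stood at 10.37, 10.31 and 10.31 (10.33 ± 0.04, SD; adjusted p = 4.2e-05 above the limit, limma). Gjc1, a connexin known mainly from smooth muscle and the conduction system of the heart, stood at 10.74, 10.65 and 10.65 (10.68 ± 0.05; adjusted p = 7.2e-05, limma). Beside Gjc1, the smooth muscle genes Acta2 and Pdgfrb were at 7.56, Myh11 stood at 7.92, 8.01 and 8.01, and Tagln at 7.76, 7.87 and 7.76. Of that list Notch3 (8.51) and Cspg4 (8.02 ± 0.02, SD), chosen after their values were seen, reached the background limit in all arrays. The summed level of the 8 smooth muscle and pericyte markers was 1904, 1887 and 1875 units in replicates 1, 2 and 3. The part of such cells in the level of Gjc1 was not tested.

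Connexins of other tissues mostly stayed below the background limit. In all arrays 3 of 12 reached it (25%, against 54.9% of all genes), and 9 were called below it (41.4% of all genes were). Those above were Gjd3, at 9.03 in all arrays, Gja3 of the lens, at 8.58 in all arrays, and Gja6, at 8.18, 8.14 and 8.14 (adjusted p = 0.00225, limma, and 0.056 and 0.0555 without replicates 2 and 3). Gjb1, the liver and Schwann cell connexin, stood at 7.85, 7.84 and 7.84, and its side was lost with the other prior (adjusted p = 0.162, limma). Gjb5 (7.56), the neuronal Gjd2 (7.50), the glial Gjc3 (7.47), Gjd4 (7.22) and the cochlear Gjb6 (7.17) each had 1 value in all arrays. Gja10 of the retina stood at 6.74, 6.92 and 6.92. Its call below the background limit was lost without replicate 2 (adjusted p = 0.0511, limma) or 3 (0.0507), and so was its call above 100 units (adjusted p = 0.26 for both). The cochlear Gjb2, at 6.30, 6.52 and 6.52, was under 100 units in every array, and limma did not call that gap (adjusted p = 0.0877). Gje1 of the lens was listed at 5.88.

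Cdh5 encodes the cadherin of endothelial adherens junctions, and it lay over both limits in every array. Cdh5, VE-cadherin, stood at 12.92, 12.65 and 12.57 (12.71 ± 0.18, SD). It lay 4.77 ± 0.10 (SE) log2 units over the background limit (adjusted p = 0.000301, limma). Replicate 1 was its high array and its range was 0.34. Of the 10 endothelial markers 7 also had their single highest value in replicate 1 (13.2% of all genes did). These shares have unlike bases, since 46.3% of all genes had the same value in all arrays, against 1 of these 10. The summed level of the markers, however, was 46816, 41192 and 42398 units in replicates 1, 2 and 3. It was lowest in replicate 2 and the level of Cdh5 in replicate 3. The part of the share of endothelial cells in this order was not tested.

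Other cadherins described in vessels did not reach the background limit. Cdh2, N-cadherin, which links endothelium to mural cells, was listed at 6.82 in every array, between the limits. Cdh13, the T-cadherin that binds adiponectin and is held by a lipid anchor, was at 7.91, only 0.04 under the background limit. The fit with the other prior did not place it (adjusted p = 0.589, limma).

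The tubule cadherins were among the more variable members. Cdh1, E-cadherin, stood at 8.77, 8.77 and 8.55 (8.69 ± 0.13, SD) and lay above the limit (adjusted p = 0.00642, limma), a call lost without replicate 1 (adjusted p = 0.095) or 2 (0.0967). Cdh16, the kidney-specific cadherin, stood at 8.61, 8.61 and 8.17 (8.46 ± 0.26; adjusted p = 0.0572, limma, or 0.0164 with the other prior). Both were low in replicate 3 only. Cdh6, a cadherin of the developing nephron and proximal tubule, stood at 7.91, 8.02 and 7.91 (7.94 ± 0.06), which spans the limit (adjusted p = 0.941, limma).

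Of 17 cadherins of other tissues, 5 reached the background limit in all arrays (29.4%, against 54.9% of all genes). Another 4 were under 100 units in at least 1 array (23.5%, against 14.6% of all genes). Cdh24 stood at 9.05 in all arrays by the probe set used, whereas its other probe set stood at 7.69, 7.74 and 7.69, below the limit. The probe sets of this gene thus gave opposite sides. The other 4, the mesenchymal Cdh11 (8.11), the muscle cadherin Cdh15 (8.02, 8.02 and 8.03), Cdh4 (7.99) and Cdh22 (7.99), lay at most 0.16 over the limit. The fit with the other prior placed none of these 4 (adjusted p = 0.058, 0.274, 0.482 and 0.526, limma).

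Between the limits were Cdh26 (7.46), Cdh23 of hair cell tip links (7.35), Cdh20 (7.27 ± 0.02, SD), Cdh18 (7.22, with another probe set at 6.84), the P-cadherin Cdh3 (7.17), Cdh7 (7.13), the intestinal Cdh17 (6.88) and Cdh8 (6.84). Under 100 units were Cdh10 (6.64), Cdh12 (5.96), Cdh9 (5.09) and Cdh19 (4.65), a cadherin of Schwann cell precursors. Cdh10 missed 100 units by 0.01 and was not placed with the other prior (adjusted p = 0.937, limma). These are mostly cadherins of the nervous system, and none of the 4 varied between arrays.

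**Figure D3:**
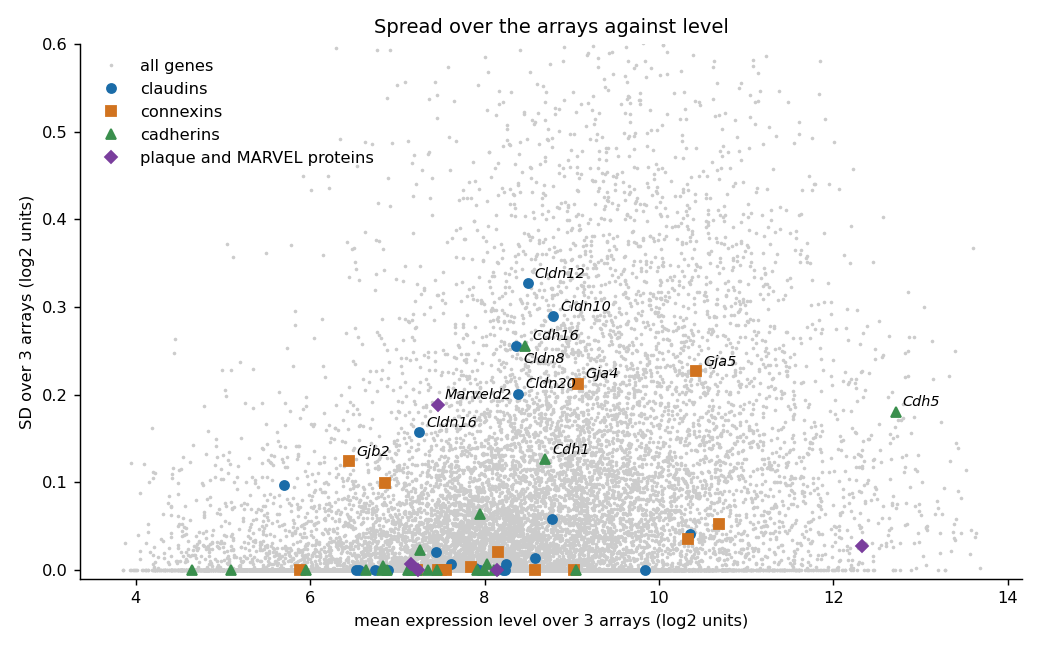
SD over the 3 arrays (y axis, log2 units) against mean level (x axis, log2 units) for all genes in grey and for the members by family, with names for members of SD 0.1 or more. The axis ends at 0.6, which leaves out 221 of all genes. The largest SD of a member is 0.33 (Cldn12).

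The spread of the members over the arrays was near that of all genes. An SD of at least 0.1 was seen in 12 members (17.9%, against 22.5% of all genes) and of at least 0.2 in 7 (10.4%, against 11.4%), which were Cldn8, Cldn10, Cldn12, Cldn20, Gja4, Gja5 and Cdh16. The single highest value fell in replicates 1, 2 and 3 for 8, 8 and 4 members, and the single lowest for 10, 3 and 7. For all genes the shares were 13.2%, 12.5% and 13.9% for the highest and 15.2%, 11.5% and 11.4% for the lowest. The 36 members with the same value in all arrays have no high or low array, so these counts describe the other members only.

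Tubule members and tubule markers can be set beside each other array by array. Umod of the thick ascending limb stood at 11.61, 10.40 and 9.49, and Slc12a1, the salt transporter of that segment, at 9.68, 8.07 and 7.81. In the collecting duct, Aqp2, its water channel, stood at 9.67, 9.67 and 9.27, and Fxyd4, chosen after its values were seen, at 9.24, 10.32 and 9.16. Other markers of these segments were flat, among them Kcnj1 (8.84) and Bsnd (7.95) of the thick limb and Hsd11b2 (8.25) and Avpr2 (8.50) of the collecting duct, while Aqp3 stood at 8.54, 8.56 and 8.54. Of the thick limb list 3 of 7 genes had their single highest value in replicate 1 and 4 had the same value in all arrays. Of the collecting duct list 3 of 9 had their single lowest value in replicate 3, and 3 had the same value in all arrays. Cldn8, Cldn10, Cdh1 and Cdh16 also had their single lowest value in replicate 3, and these 4 were named with their values known. Of all 10 tubule claudins, 4 had their single lowest value in replicate 1 and 2 in replicate 3, while 3 had the same value in all arrays. Cdh6 had no single lowest array.

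Whole lists were summed as well. The summed level of 7 thick limb markers was 5564, 3092 and 2419 units in replicates 1, 2 and 3, that of 9 collecting duct markers 3007, 3650 and 2706, and that of 8 proximal tubule markers 1409, 1413 and 1413. The sum of the 10 tubule claudins was 2625, 2836 and 2536 units, highest in replicate 2. These orders rested on few genes. Without Fxyd4 the other 8 collecting duct markers summed to 2403, 2375 and 2135 units, and without Cldn8 and Cldn10 the other 8 claudins summed to 1862, 1903 and 1899, sums that were chosen after seeing the data. Whether carried-over tubule cells have a part in the levels of these members was not tested.

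**Figure D4:**
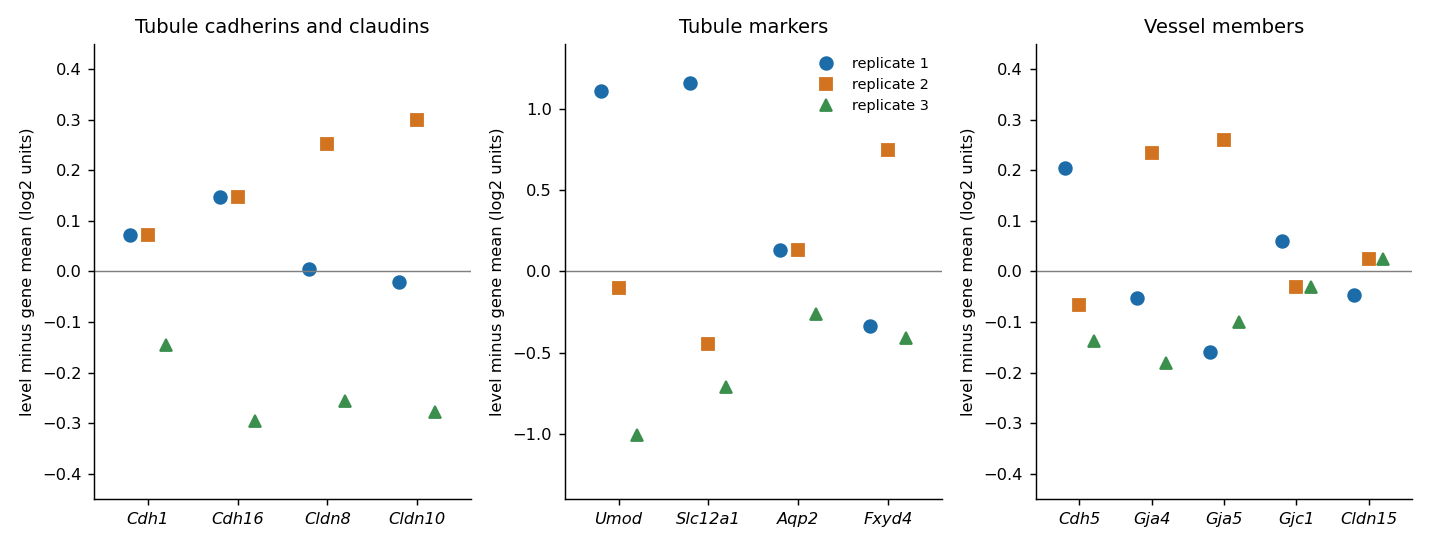
Level of each array minus the mean of its gene (y axis, log2 units; the middle panel has a wider axis) for tubule cadherins and claudins, tubule markers and vessel members (x axis), with 1 symbol per replicate. The panels show selected genes and not whole lists, and flat genes such as Cldn19, Kcnj1 and Cldn5 are left out. Cldn8, Cldn10, Cdh1 and Cdh16 are lowest in replicate 3, while Gja4 and Gja5 are highest in replicate 2. Of all 10 tubule claudins, 4 are lowest in replicate 1 alone and 2 in replicate 3 alone.

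Most other genes of the adherens junction reached the background limit. Of 10 catenins and cadherin partners 9 did in all arrays (90%, against 54.9% of all genes), and limma called these 9 above it. Ctnnb1, beta-catenin, stood at 11.57, 11.01 and 11.25 (11.28 ± 0.28, SD), and Ctnna1, alpha-catenin, which links it to actin, at 11.46, 11.02 and 11.29 (11.26 ± 0.22). Ptprb, the phosphatase that guards VE-cadherin, stood at 12.92, 12.69 and 12.84 (12.82 ± 0.12). These genes were high in replicate 1 and low in replicate 2. Of the 10 on the list, 7 had their single highest value in replicate 1 (13.2% of all genes did). These shares have unlike bases. Of all genes 46.3% had the same value in all arrays and so no highest array, against 2 of these 10. Ctnnd1 (11.21 ± 0.06), Ptprm (11.28 ± 0.06), Afdn (11.05 ± 0.08), plakoglobin Jup (10.93 ± 0.17), vinculin Vcl (9.72 ± 0.21) and Arvcf (8.25) followed, while Ctnna3, the alpha-catenin of heart, was at 7.05.

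Tight junction partners lay on both sides of the background limit. Of 16 measured, 10 reached the background limit in all arrays, a share of 62.5% that was near the 54.9% of all genes. These 10 were called above it (52.5% of all genes were), and 5 were called below (41.4% of all genes were). The junctional adhesion molecules F11r (11.23 ± 0.07, SD), Jam2 (11.07 ± 0.15) and Esam (10.63 ± 0.29) lay over it. Jam3 stood at 9.76, 8.97 and 9.98 (9.57 ± 0.53), with replicate 2 far under the others. Mpdz (10.19 ± 0.07), Marveld1 (9.91), Magi3 (9.89 ± 0.01), Cgnl1 (9.77 ± 0.04), Magi1 (9.30 ± 0.05) and Lsr (8.65 ± 0.06) were the rest of the 10. Cgn, cingulin of epithelial junctions, was at 7.84, Pard3 at 7.67, Ildr2 at 7.61, Ildr1 at 7.56 and Patj at 7.30, and Pard6a at 7.88 ± 0.04 was not placed. Cgn lost its side with the other prior, while its relative Cgnl1 lay above the limit in both fits.

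**Figure D5:**
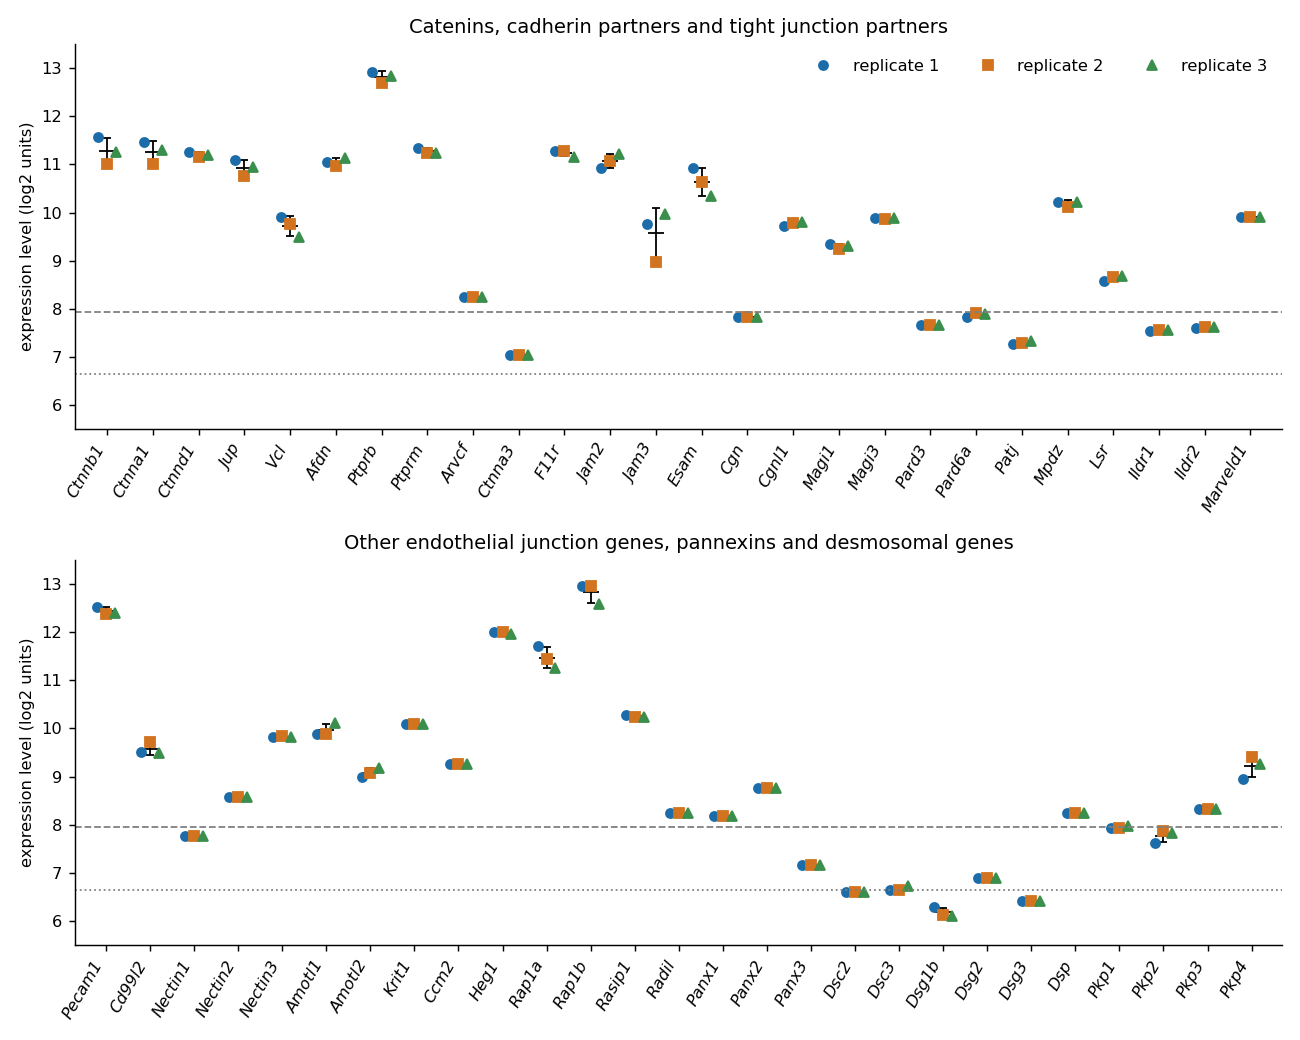
Expression level (y axis, log2 units) of genes of the junction pathway that are not members (x axis), where points are the 3 arrays, bars give mean ± SD, and dotted and dashed lines mark 100 units and the background limit. Jam3 has the widest spread of the tight junction partners, with an SD of 0.53.

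Other genes of endothelial junctions also lay over the limit, in contrast with most desmosomal genes. Of 14 endothelial junction genes 13 reached it in all arrays (92.9%, against 54.9% of all genes) and were called above. The adhesion molecule Pecam1 (12.44 ± 0.08, SD) was among them. Heg1 (11.98 ± 0.03) and Krit1 (10.09), which act together with the GTPase Rap1, and the Rap1 genes Rap1a (11.47 ± 0.23) and Rap1b (12.83 ± 0.22) were also among them. Nectin1 (7.77) was the exception, and its side was not kept with the other prior. Of 10 desmosomal genes 3 reached the limit in all arrays (30%, against 54.9% of all genes). They were Pkp4 (9.21 ± 0.23), Pkp3 (8.34) and desmoplakin Dsp (8.25). The desmosomal cadherins Dsc2 (6.61), Dsc3 (6.68 ± 0.05), Dsg1b (6.18 ± 0.10), Dsg2 (6.90) and Dsg3 (6.42) were all called below it. Among the pannexins, channel proteins related in shape to connexins, Panx2 (8.77) and Panx1 (8.18) were called above and Panx3 (7.16) below.

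Members that lie side by side in the genome were also set against the limit as groups. With at most 100 kb between neighbours in RefSeq GRCm38.p6, 20 members formed 9 groups. In 7 of these, members stood on both sides of the background limit, counted by all 3 arrays, and in the other 2 no member reached it. Since 41.8% of all members reached the limit, mixed groups can arise among neighbours of unrelated level. The share of mixed groups among neighbouring genes in general was not computed. Gja4 (9.07 ± 0.21, SD) lies beside Gjb5 (7.56). Cldn4 (8.58 ± 0.01) lies with Cldn3 (7.89 ± 0.0022) and Cldn13 (6.89). Cdh1 (8.69 ± 0.13) is next to Cdh3 (7.17), Cldn8 (8.36 ± 0.26) next to Cldn17 (7.44 ± 0.02) and Cldn6 (8.21) next to Cldn9 (7.50). Gja3 (8.58) is grouped with Gjb2 (6.45 ± 0.12) and Gjb6 (7.17). Ocln with Marveld2, and Cldn1 with Cldn16, were the groups without a member at the limit.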

How the data were processed

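Endothelial cells of the renal medulla were measured on 3 Affymetrix Mouse Gene 1.0 ST arrays of 1 group. The deposited values are log2 expression levels that the authors made by RMA (robust multi-array average, which corrects background, normalises arrays by quantiles and summarises probes), with Affymetrix Expression Console per the labels. RMA makes arrays alike in distribution, so a shift common to all genes would not be seen. No source used here states whether the raw level of the study's filter is on the scale of these values. Values of the 35557 probe sets ran from 3.55 to 14.43.

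The platform annotation named 1 gene for 21789 probe sets, several for 1621 and none for 12147. Symbols were updated by Entrez identifier for 21698 of the 21789 (99.6%), and 19938 genes were kept, with the probe set of the highest mean for each. Levels were set against 100 units and against the 95th percentile of 1247 sensory receptor probe sets (247 units). limma (version 3.58.1, R 4.3.3) fitted an intercept to the level minus the limit, two-sided, with Benjamini-Hochberg adjustment over all 19938 genes and a threshold of 0.05. The fit was tested on simulated data, and no call reported here rests on that test. Since 9230 genes had the same value in all arrays, a prior variance from the 4781 genes with 3 different values was an alternative, called the other prior in the results. Python 3.11.15 with numpy 2.4.6, pandas 2.3.3 and matplotlib 3.10.9 did the rest.

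Other alternatives left out each array, changed the limits, the probe set per gene, the normalization and the trend of the prior, or dropped genes under 50 units. The arrays were described as independent biological samples. The p-values measure the spread between these samples only where the values of a gene differ. Cldn4, Cldn14, Cldn15 and Ocln, among others, had 2 different values over the arrays. The spread of such genes rests on a single differing array and can be understated. For the 9230 genes whose values did not differ, no spread was measured. The main fit then gave members an SE of 2e-05, so its calls for them do not rest on sample spread. Cdh13, at -0.036 against the background limit, was such a call, and the other prior did not keep it (adjusted p = 0.589, limma). The prior of the main fit also enters the SE of members whose values differ. For Gja1 this SE was 0.0192, or 0.0609 with the other prior, and for Cdh5 it was 0.0983, or 0.0952. The number of samples limits the precision. The named genes are all members, the genes of the pathway lists and the first 4 measured genes of each marker list, with exceptions marked. Members and lists were chosen with earlier results of these data known. No list was tested as a set. Some genes of these families are not reported here.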

Additional observations from a re-analysis of the deposited data

How the results depend on the processing

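The count of members above 100 units was 58, and with a limit of 200 units it was 34, the same as the count at that limit in all 3 arrays. The count of members below 100 units, 8, became 32 with 200 units, 2 with 50 units and 5 with the prior from genes with 3 different values. With the 99th percentile of the sensory receptors as background limit (log2 8.72), 9 members lay above it in place of 24, and 11 in place of 28 reached it in all arrays. The shifts with another limit follow from the limit itself. Leaving out each array in turn gave 53 to 54 members above and 7 to 8 below 100 units, and 21 to 22 above and 35 to 38 below the background limit. The counts over all remaining arrays were 58 and 28 each time.

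Among single members, Cdh6 changed sign against the background limit without replicate 1 or replicate 3 (0.016 over it, adjusted p = 0.822 and 0.823, limma) and was -0.040 without replicate 2, and Cdh24 with its lower probe set (-0.24, adjusted p = 0.00394, limma). Beyond the calls given with the results, the calls above 100 units were lost without replicate 1 for Cdh16 (adjusted p = 0.0734), Cldn10 (0.0778), Cldn12 (0.0842), Cldn20 (0.0605) and Cldn8 (0.086), without replicate 2 for Cdh16 (0.074), Cldn12 (0.0847), Cldn16 (0.141) and Marveld2 (0.108), and without replicate 3 for Cldn16 (0.141), Cldn20 (0.0608) and Marveld2 (0.108), all by limma. The call of Cldn24 below 100 units was lost without replicate 1 (adjusted p = 0.0536, limma) or 2 (0.0543). Members whose remaining arrays then held 1 value became called: Gjb2 below 100 units without replicate 1, Cldn20 above and Cdh6 below the background limit without replicate 2, and Cdh16 and Cldn12 above it without replicate 3. With equal remaining values limma gives a very small error, so these calls do not rest on a measured spread between arrays. Quantile normalization and median centring each placed Cdh16, Cldn8, Cldn12 and Cldn20 above the background limit and no longer placed Cldn7 and Cldn18, and both called Gjb2 but not Cdh10 below 100 units. Single members were not set against the alternative limits. No paired analysis was possible because the series holds 1 group.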

Other observations

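Some probe sets name a member together with other genes and were not used in the counts. The 3 that name Cdh11 with 6820431F20Rik and 2610005L07Rik stood at 12.66, 11.67 and 12.24, whereas the probe set that names Cdh11 alone stood at 8.11. A probe set for Dzip1 and Cldn10 was at 6.86 in all arrays.

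Exact repeats of values were common. For 5282 of the 19938 genes (26.5%) the values of all 3 arrays equalled those of another gene, and this held for 20 of the 67 members (29.9%). Cdh18 and Gjd4 shared the value 7.22 in every array. How these repeats arose was not tested.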
